A study of Homo sapiens with 6 samples.

Results

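The regions described here are the EHF peaks of one chromatin immunoprecipitation library that were not called in its replicate. EHF (Ets homologous factor) was immunoprecipitated from Calu-3, an established human line derived from a lung adenocarcinoma and grown without treatment, and the bound DNA was sequenced. Of the 1537 peaks called in EHF replicate 1, 769 shared no base with any of the 5216 peaks called in EHF replicate 2, and these 769 are the replicate 1-only peaks. They were thus chosen by whether a peak was called at the same place in each replicate. The other 768, which overlapped a replicate 2 peak by 1 bp or more, are called shared peaks. Both EHF libraries were made with the same antibody clone and called against the same input library, and the labels do not say whether they came from separate cultures. One library each of the histone marks H3K27ac and H3K4me1, called against a second input, came from the same line.

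EHF belongs to the ETS family of transcription factors, whose DNA-binding domain recognises short sites with a GGAA core, and it is found mainly in epithelia, including that of the airway. H3K27ac is an acetylated histone found at active enhancers and promoters. H3K4me1 is a methylated histone found at enhancers, and at active ones it often flanks the bound site more than it covers it. A peak list states where a library passed a caller's thresholds, so absence from the second list means only that those thresholds were not met there.

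The replicate 1 library held 10176290 tags, of which 0.155% lay in its peaks, and the replicate 2 library held 8418631 tags, of which 0.740% lay in its peaks. The H3K27ac list covered 64.9 Mb and the H3K4me1 list 23.6 Mb, which is 3.25% and 1.18% of the genome size of 2000000000 bp set in the file headers. The mark libraries have no replicate. All intervals below are exact (Clopper-Pearson) 95% binomial intervals. They cover counting error only. Like the p-values, they treat peaks as independent, which neighbouring peaks are not. The p-values take peaks as their units, so they say nothing of the spread between cultures. Most compare positions within replicate 1, and the comparison with replicate 2 peaks sets 1 EHF library against the other. Positions are in the build hg19.

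Most replicate 1-only peaks had low scores. The deposited score is the number of tags in the peak after the library was scaled to 10000000 tags. Because the peaks were selected on the calls of both EHF lists, their scores and their distances to replicate 2 are given as a description. The replicate 1-only scores ran from 6 to 19, with a median of 9 (quartiles 8 and 10). The shared peaks ran from 7 to 45, with a median of 10 (quartiles 9 and 13). A score of 8 or less was found for 380 replicate 1-only peaks (49.4%) and 146 shared peaks (19.0%). A score of 15 or more was found for 6 replicate 1-only peaks (0.780%) and 123 shared peaks (16.0%). The caller's threshold of 8 tags in replicate 1 equals 7.86 after scaling, and its threshold of 7 tags in replicate 2 equals 8.31. The input filter removed 62.0% of the putative peaks in replicate 1 and 33.8% in replicate 2. A score of 7 or less was listed for 88 of the replicate 1-only peaks (11.4%) and 27 of the shared peaks (3.52%). The 2 sets overlapped at scores of 7 to 19, and no replicate 1-only peak reached 20.

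**Figure D1:**
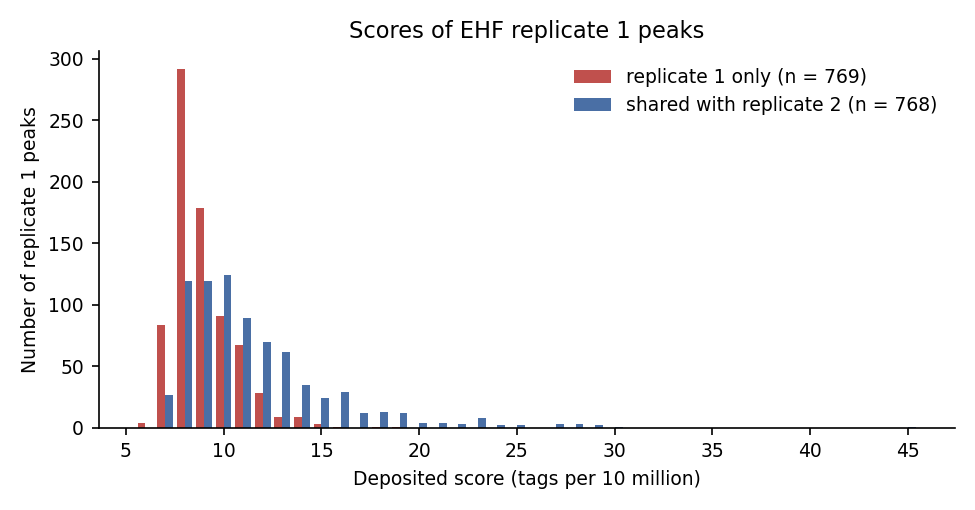
Number of EHF replicate 1 peaks (vertical axis) at each deposited score in tags after scaling (horizontal axis), as red bars for the 769 replicate 1-only peaks and blue bars for the 768 shared peaks. The red bars end at a score of 19 and the blue bars run on to 45.

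Few of these peaks lay close to a called replicate 2 peak. Replicate 2 tags at their positions were not counted, so sites just under its threshold cannot be told from these distances. The nearest replicate 2 peak lay a median of 76618 bp away (quartiles 22228 and 242925 bp, between the nearest ends). It lay within 200 bp for 14 peaks (1.82%), within 1000 bp for 35 (4.55%) and within 10000 bp for 117 (15.2%). For 341 peaks (44.3%) it was more than 100000 bp away, and for 31 (4.03%) more than 1000000 bp. The closest was the peak at chr20:48909141-48909291, with a score of 8, which stopped 2 bp short of a replicate 2 peak with a score of 10. The next were chr1:109127141-109127291, with a score of 10 and a gap of 20 bp, and chr18:12660159-12660309, with a score of 12 and a gap of 26 bp. These 3 lay in H3K27ac regions, as did 13 of the 14 peaks within 200 bp. On the other side of the rule, the shared peak at chr3:190284290-190284440, with scores of 16 and 43 in the replicates, overlapped its partner by 4 bp. The shared peaks at chr8:144980332-144980482 and chr11:126686756-126686906 overlapped theirs by 5 and 8 bp. Of the 768 shared peaks, 3 overlapped by 10 bp or less and 24 by 50 bp or less, and the median overlap was 116 bp. With the replicate 1 centre required to lie inside a replicate 2 peak, 840 peaks counted as replicate 1-only.

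The replicate 1-only peaks were less often in H3K27ac regions than the shared peaks. The mark was called at 338 of the 769 (44.0%, 95% interval 40.4% to 47.5%), while 60.8% of all replicate 1 peaks had it. Among the shared peaks it was 597 of 768, or 77.7% (74.6% to 80.6%), which leaves the replicate 1-only peaks 33.8 percentage points lower (two-sided Fisher's exact test, p = 5.0e-42 after Benjamini-Hochberg adjustment over 5 tests). They were also 17.6 points below the 4448 replicate 2 peaks that had no replicate 1 peak, of which 61.6% (60.1% to 63.0%) overlapped H3K27ac (Fisher's exact test, adjusted p = 3.0e-19), against 63.8% of all replicate 2 peaks. The difference from the replicate 2 peaks is one between 2 libraries. These also differed in peak size (150 and 125 bp) and in scaled tag threshold (7.86 and 8.31), and the part of this was not tested. The 2 mark libraries played no part in choosing the peaks. Even so, the lower share was far above the 3.25% of the genome that the H3K27ac list covers.

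The gap to the shared peaks was also present within bands of replicate 1 score, from a score of 7 up to 14. At a score of 8, 107 of 292 replicate 1-only peaks (36.6%) and 96 of 119 shared peaks (80.7%) overlapped H3K27ac, a difference of -44.0 points (Fisher's exact test, p = 7.9e-16 after adjustment over 5 bands). At scores of 9 to 10 the shares were 45.2% and 77.0% (-31.8 points, Fisher's exact test, adjusted p = 3.8e-13). From 11 to 14 they were 61.1% and 77.7% (-16.7 points, Fisher's exact test, adjusted p = 0.0024). At a score of 7 they were 39.3% and 74.1% (-34.8 points, Fisher's exact test, adjusted p = 0.0024). At 15 or more, 5 of 6 replicate 1-only peaks and 95 of 123 shared peaks overlapped, and 6 peaks give an interval of 35.9% to 99.6%, so that a difference was not detectable. Over the 5 bands with both kinds of peak, the common odds ratio of H3K27ac overlap was 0.257 (exact conditional Cochran-Mantel-Haenszel test, p = 4.5e-30). Weighted over the bands, the difference in share was -30.8 points. The wider bands mix scores, and with 1 band for each whole score it was -30.2 points. The share in H3K27ac was thus nearly flat over score for the shared peaks, at 74.1% to 80.7%, and ran from 36.6% to 83.3% over the same bands for the replicate 1-only peaks. Whether the difference itself varied between bands was not tested.

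**Figure D2:**
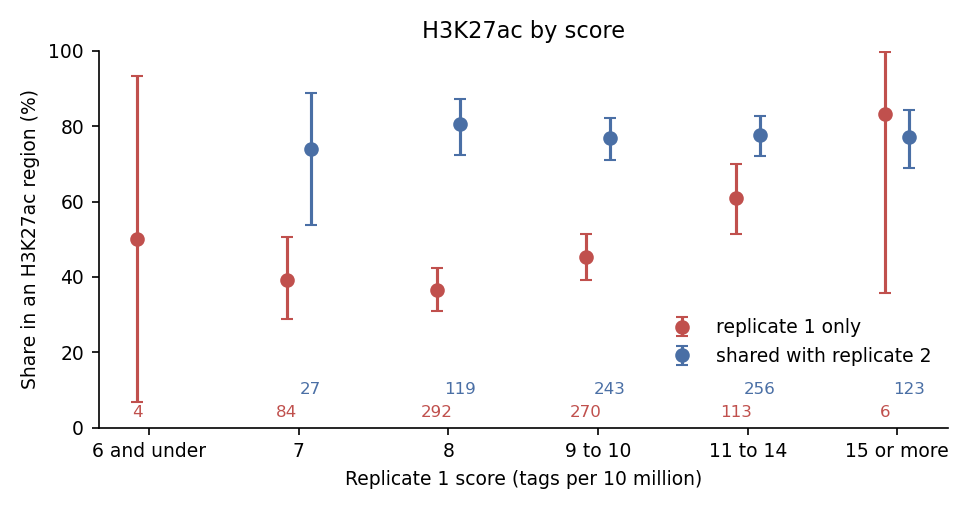
Share of EHF replicate 1 peaks in an H3K27ac region in percent (vertical axis) by deposited score (horizontal axis), for replicate 1-only peaks (red) and shared peaks (blue), with exact 95% intervals as bars and the number of peaks along the bottom. The red points lie below the blue ones at scores of 7 to 14, by 16.7 to 44.0 points.

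The share in H3K27ac also went with the distance to the nearest replicate 2 peak. Of the 35 replicate 1-only peaks within 1000 bp of one, 32 overlapped H3K27ac, or 91.4% (76.9% to 98.2%). The share was 62.2% (50.8% to 72.7%) of the 82 peaks at 1001 to 10000 bp and 44.7% (39.1% to 50.4%) of the 311 at 10001 to 100000 bp. It was 32.9% (27.7% to 38.4%) of the 310 peaks from 100001 to 1000000 bp, and 45.2% (27.3% to 64.0%) of the 31 beyond. The median score was 9 in the first 3 classes and 8 in the last 2. These shares are a description, since 63.8% of the replicate 2 peaks themselves overlapped H3K27ac.

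**Figure D3:**
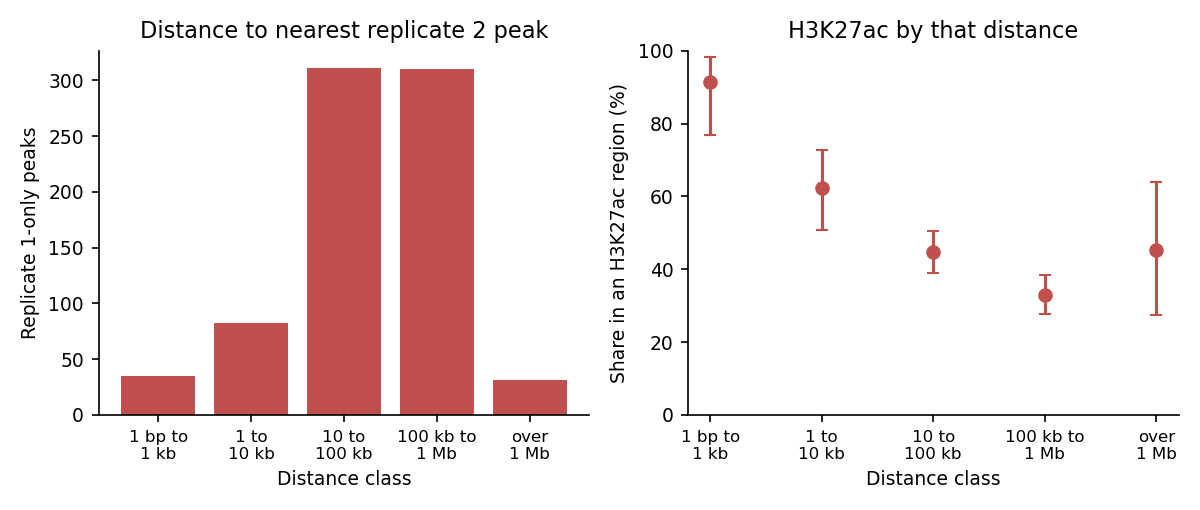
Left, number of replicate 1-only peaks (vertical axis) in each class of distance to the nearest replicate 2 peak (horizontal axis). Right, the share of each class in an H3K27ac region in percent with exact 95% intervals, from 91.4% within 1 kb to 32.9% at 100 kb to 1 Mb.

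Where a replicate 1-only peak did lie in H3K27ac, the region resembled those of the shared peaks in width. The 338 peaks lay in 335 regions, 332 with a single one and 3 with 2. The median width was 2666 bp for these regions (quartiles 1663 and 4296 bp) and 2669 bp for the 591 regions with a shared peak, against 1271 bp for the 31235 regions with no EHF peak of either list. A wider region has more room to hold a peak, so the contrast with the regions without one is a description. The median H3K27ac score per kb was 43.0 (33.4 and 61.2) in the regions with a replicate 1-only peak, 48.5 (35.3 and 68.9) in those with a shared peak and 26.6 in those with no EHF peak. Of the 335 regions, 52 (15.5%) held a replicate 2 peak elsewhere along their length and 8 also held a shared peak. The regions that also held a replicate 2 peak had a median of 65.3 per kb and the 283 without one had 41.0. Their median widths were 3660 and 2503 bp, and the part of width in this was not tested. Within their regions the replicate 1-only peaks sat less centrally. The peak centre lay over 0.333 of the region's width from both ends for 158 of 338 (46.7%, 41.3% to 52.2%) and for 346 of 597 shared peaks (58.0%, 53.9% to 62.0%), a comparison chosen after these values were seen and therefore given with no test.

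H3K4me1 regions lay near replicate 1-only peaks less often than near shared peaks, while the shares covered by the mark did not differ past the test. Of the 769, 84 overlapped an H3K4me1 region, or 10.9% (8.81% to 13.3%), against 10.1% of all replicate 1 peaks. The share was 9.24% (7.29% to 11.5%) for the shared peaks, and the difference of 1.68 points did not pass the test (Fisher's exact test, adjusted p = 0.31). Judged by the peak centre, the difference was 3.24 points and passed (9.62% against 6.38%, Fisher's exact test, adjusted p = 0.024). With mark regions joined where gaps were at most 1000 bp, it turned to -0.277 points (Fisher's exact test, adjusted p = 0.88). Within 2000 bp of the centre, 288 replicate 1-only peaks had an H3K4me1 region, or 37.5% (34.0% to 41.0%), against 44.4% of all replicate 1 peaks. That was 13.98 points below the 51.4% (47.8% to 55.0%) of the shared peaks (Fisher's exact test, adjusted p = 6.3e-08). The nearest H3K4me1 region lay a median of 6250 bp from a replicate 1-only peak and 1663 bp from a shared peak.

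Among peaks in H3K27ac the order was the opposite at the peak itself. There 54 of 338 replicate 1-only peaks (16.0%, 12.2% to 20.3%) overlapped H3K4me1, against 12.1% of all replicate 1 peaks in H3K27ac. The share was 59 of 597 (9.88%, 7.61% to 12.6%) for the shared peaks, 6.09 points lower (Fisher's exact test, adjusted p = 0.011). This call was lost with mark regions merged across 1000 bp (4.91 points, adjusted p = 0.063) and without the 10 Mb stretches of high mark signal described later (4.29 points, adjusted p = 0.093), by the same Fisher's exact test.

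Around the centres the marks had different outlines. Called H3K27ac covered 41.4% of the replicate 1-only centres. It covered 27.3% and 27.6% of positions 1000 bp to the lower and the higher side, and 15.6% and 14.8% of positions 2000 bp out. The values for the shared peaks were 75.3% at the centre and 48.2% and 47.7% at 1000 bp. H3K4me1 covered 9.62% of the replicate 1-only centres (7.63% to 11.9%), 12.5% and 13.1% of positions 500 bp out, and 8.45% and 9.49% of positions 1000 bp out. For the shared peaks it covered 6.38% of the centres (4.76% to 8.35%), 16.3% and 16.5% at 500 bp, and 14.1% and 15.1% at 1000 bp. Among peaks in H3K27ac, the centre was covered by H3K4me1 in 14.2% of the replicate 1-only peaks (10.7% to 18.4%) and 6.70% of the shared peaks (4.83% to 9.01%). At 1000 bp on both sides the values were 16.3% and 16.9% against 16.8% and 18.1%. With overlap judged by the centre for both marks, the shares were 14.2% and 6.75%, a difference of 7.40 points (Fisher's exact test, adjusted p = 0.00057). The difference between centre and sides was not tested between the sets.

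**Figure D4:**
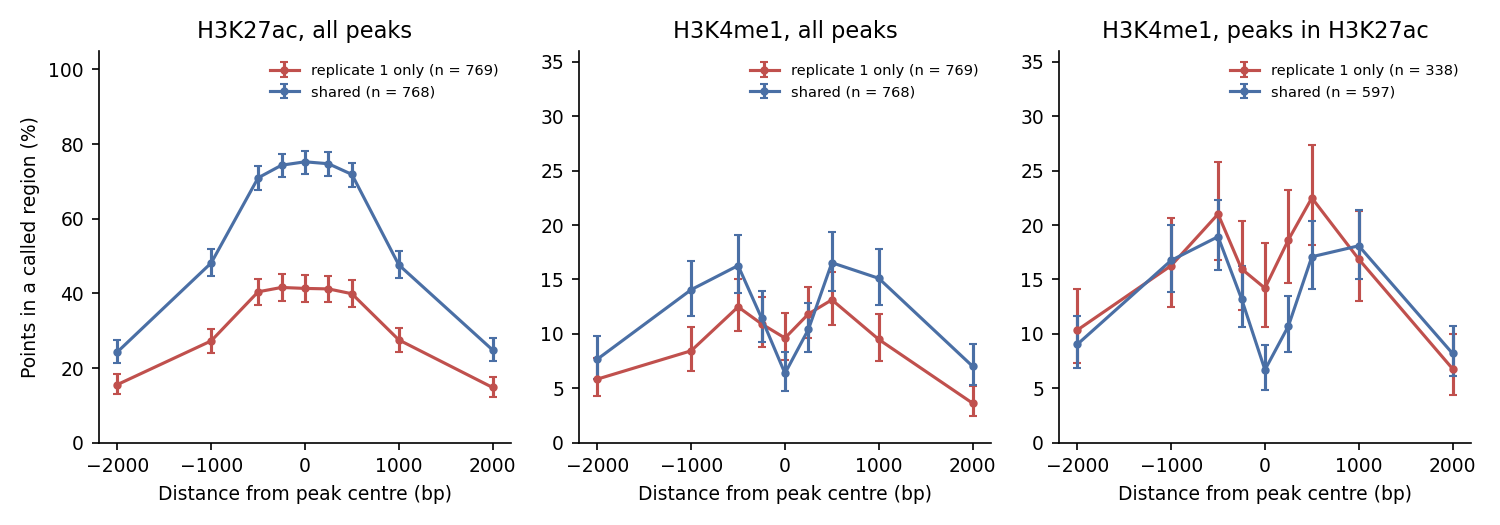
Share of points in a called mark region in percent (vertical axes) at distances from the EHF peak centre in bp (horizontal axes), for H3K27ac and H3K4me1 at all replicate 1 peaks and for H3K4me1 at the peaks in H3K27ac. Red, replicate 1-only peaks; blue, shared peaks; bars are exact 95% intervals. In the third panel the blue line falls to 6.70% at the centre and the red line to 14.2%.

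The replicate 1-only peaks lay in neither mark more often than the shared peaks. By both lists, 401 of 769 (52.1%, 48.5% to 55.7%) were in neither, 284 (36.9%) in H3K27ac alone, 54 (7.02%) in both and 30 (3.90%) in H3K4me1 alone. Over all replicate 1 peaks these shares were 36.4%, 53.5%, 7.35% and 2.73%. Of the shared peaks, 159 (20.7%, 17.9% to 23.7%) were in neither. The 401 were not mostly at the edges of mark regions, since the nearest region of either mark lay a median of 13337 bp away (quartiles 2128 and 37842 bp), against 4554 bp for the 159 shared peaks in neither. No region of either mark lay within 100000 bp of 40 replicate 1-only peaks (5.20%) and 5 shared peaks (0.651%). The median score was 8 in neither mark and 9 in each of the 3 marked classes.

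Of the 12 highest, with scores of 14 to 19, 9 overlapped H3K27ac, 3 of them together with H3K4me1. Chromosome 18 held 4 of the 12, and 39 of all 769 replicate 1-only peaks (5.07%). These 4 formed pairs with centres 28101 and 60781 bp apart. Scores of 14 were tied among 9 peaks, and 6 of these entered the 12 in order of position. With all ties kept, 10 of 15 overlapped H3K27ac, as did 124 of the 158 shared peaks with a score of 14 or more (78.5%). The highest, at chr18:74796338-74796488, scored 19 and was in neither mark, but an H3K4me1 region began 45 bp away and an H3K27ac region lay 2781 bp away. Its nearest replicate 2 peak, with a score of 14, was at 16898 bp. On the same chromosome, the peak at chr18:74768237-74768387 scored 15 and was covered by both marks, H3K27ac over 3563 bp and H3K4me1 over 1757 bp. The second highest, at chr3:160384043-160384193, scored 18 and lay in both marks. Its H3K27ac region was 15556 bp wide with a score of 2185, and the nearest replicate 2 peak was 12006 bp away. The third, at chr18:29009737-29009887, scored 16 in both marks, but its H3K27ac region of 1479 bp had a score of 23 only.

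In H3K27ac alone the highest were 2 peaks with a score of 15. The one at chr3:168722129-168722279 was 1288 bp from a replicate 2 peak. The other, at chr12:28176557-28176707, was 311981 bp from one, in an H3K27ac region of 3594 bp. Peaks with a score of 14 at chr7:73866819-73866969, chr10:91134051-91134201, chr11:57566733-57566883 and chr18:29070518-29070668 also lay in H3K27ac alone, with replicate 2 peaks 23200, 90143, 1338 and 8262 bp away. In H3K4me1 alone the highest were chr20:52908870-52909020 with a score of 14, and chr3:176824069-176824219 and chr8:32098434-32098584 with 11. Their nearest H3K27ac regions lay 14488, 4438 and 29586 bp away. Of the high-scoring peaks in neither mark, chr3:128524744-128524894 scored 14 and lay 13 bp from an H3K4me1 region and 72527 bp from H3K27ac. The peak at chr9:68420144-68420294, also with 14, was 1366072 bp from the nearest H3K27ac region and 3375304 bp from the nearest replicate 2 peak, while an H3K4me1 region lay 7058 bp away. Only the peak at chr2:90372831-90372981, with a score of 8, was farther from H3K27ac, at 1380970 bp. The third farthest, at chr3:164730780-164730930, scored 8 and was 445944 bp from H3K27ac, although a replicate 2 peak lay 11950 bp away.

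The replicate 1-only peaks were mostly single. Another replicate 1 peak lay within 10000 bp, between centres, of 46 of them (5.98%, 4.41% to 7.90%) and of 41 shared peaks (5.34%, 3.86% to 7.17%). Within 100000 bp the shares were 30.2% and 28.3%. The 46 fell into 30 runs of neighbours no more than 10000 bp apart, of which 15 held replicate 1-only peaks alone and 15 held at least 1 shared peak. The longest run had 3 peaks, at chr5:167741975-167752128, of which 2 were replicate 1-only. All 3 lay in H3K27ac, and their scores were 8 to 15. The tightest was the pair at chr15:93447429-93447894, with centres 315 bp apart and scores of 8 and 9, in H3K27ac and 106934 bp from replicate 2. Next to shared peaks, the run at chr18:74826473-74827021 paired a replicate 1-only peak scoring 13 with a shared peak scoring 24 at a distance of 398 bp.

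Over the chromosomes, no chromosome passed the test of a different share of replicate 1-only peaks. Chromosome 3 held 129 of them (16.8%) and 93 shared peaks (12.1%), chromosome 7 held 81 (10.5%) and 53 (6.90%), and chromosome 6 held 8 (1.04%) and 24 (3.12%). Of the 21 chromosomes with at least 10 replicate 1 peaks, 0.0% passed when the share of replicate 1-only peaks was set against the rest (Fisher's exact tests, smallest p after adjustment over the 21 = 0.087), and 6 had an unadjusted p under 0.05. The highest shares among the 21 were 60.9% of 64 peaks on chromosome 18 (47.9% to 72.9%) and 60.4% of 134 on chromosome 7 (51.6% to 68.8%). The lowest were 8 of 32 on chromosome 6 (11.5% to 43.4%) and 32.3% of 31 on chromosome 22 (16.7% to 51.4%). Without peaks that had another within 10000 bp, 3 chromosomes passed (Fisher's exact tests, adjusted p = 0.045 each). These were chromosome 3, at 59.2% against 48.3% elsewhere, chromosome 7, at 61.4% against 48.7%, and chromosome 6, at 8 of 32 peaks against 50.4%. With scores of 8 or more, chromosome 3 alone passed, at 57.8% against 46.1% (Fisher's exact test, adjusted p = 0.032). For every 100 H3K27ac regions, chromosome 3 held 5.27 replicate 1-only peaks, chromosome 20 held 5.15, chromosome 18 held 4.50 and chromosome 7 held 4.46. The values for the shared peaks were 3.80, 5.40, 2.88 and 2.92, so chromosome 20 was as rich in shared peaks. Chromosome 6 held 0.368 replicate 1-only and 1.10 shared peaks, and chromosome 13 held 0.286 and 0.857. On chromosome 3, 120 of the 129 lay beyond 100 Mb, as did 78 of the 93 shared peaks.

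On a finer scale these peaks gathered in a few stretches. The genome was divided into bins of 10 Mb, and 208 of the 256 bins with a replicate 1 peak held a replicate 1-only one. The 10 fullest bins, with 13 to 23 each, held 181 (23.5%) of the replicate 1-only peaks, 14.2% of the shared peaks, 12.02% of all replicate 2 peaks and 4.28% of the H3K27ac regions. They were chosen for their counts, so the first share is a description. The 3 fullest were on chromosome 3, from 180 to 190 Mb with 23, from 170 to 180 Mb with 22 and from 150 to 160 Mb with 21. The next were on chromosome 20 from 30 to 40 Mb with 19, and on chromosomes 7 (20 to 30 Mb), 8 (30 to 40 Mb) and 3 (160 to 170 Mb) with 18 each. Over the 10 bins, 42 of the 181 replicate 1-only peaks and 73 of the 109 shared peaks overlapped H3K27ac. In the chromosome 8 bin it was 1 of 18 and 7 of 9.

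The fullest bins were bins of high mark signal. The median H3K27ac score per kb was 42.2 to 50.5 in the 10, against 27.9 over the whole list. The median score of H3K4me1 regions of the narrowest width in that list, where scores can be compared without regard to width, was 12 to 15 in them, against 11 over the whole list. Of 292 bins with at least 20 H3K27ac regions, 16 had a median H3K27ac score per kb at least 1.5 times that of the list. All 10 were among these 16. The limit, 41.9, lies just under the lowest of the 10 and was set after they were seen, so that count is no test. The shares below are a description too, since the 16 include bins picked for their counts. Not all of the 16 held many replicate 1-only peaks. Chromosome 17 held 3 from 30 to 40 Mb (57.9 per kb) and 4 from 40 to 50 Mb (45.7 per kb). Chromosome 6 held 0 from 30 to 40 Mb (43.8 per kb). Those 16 bins, which were defined after the fullest bins were seen, held 209 replicate 1-only peaks (27.2%, 24.1% to 30.5%), 143 shared peaks (18.6%, 15.9% to 21.6%) and 6.89% of the H3K27ac regions. They also held 36.4% (31.9% to 41.2%) of the replicate 1-only peaks outside H3K27ac and 15.4% (11.7% to 19.7%) of those inside. For the shared peaks the same shares were 28.7% (22.0% to 36.1%) outside H3K27ac and 15.7% (12.9% to 18.9%) inside. In the 16 bins 24.9% (19.2% to 31.3%) of the replicate 1-only peaks and 65.7% (57.3% to 73.5%) of the shared peaks overlapped H3K27ac. In the other bins the shares were 51.1% (46.8% to 55.3%) and 80.5% (77.2% to 83.5%). The difference between replicate 1-only and shared peaks was therefore -40.9 points inside the 16 bins and -29.4 points outside them. Across the 292 bins, the number of replicate 1-only peaks per 100 H3K27ac regions and the median H3K27ac score per kb had a Spearman rho of 0.51. It was 0.63 for the shared peaks and 0.775 for the replicate 2 peaks without a replicate 1 peak. The bins share libraries, and this is a description. Neighbouring bins are not independent, and the part of the local signal level in these peaks was not tested.

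**Figure D5:**
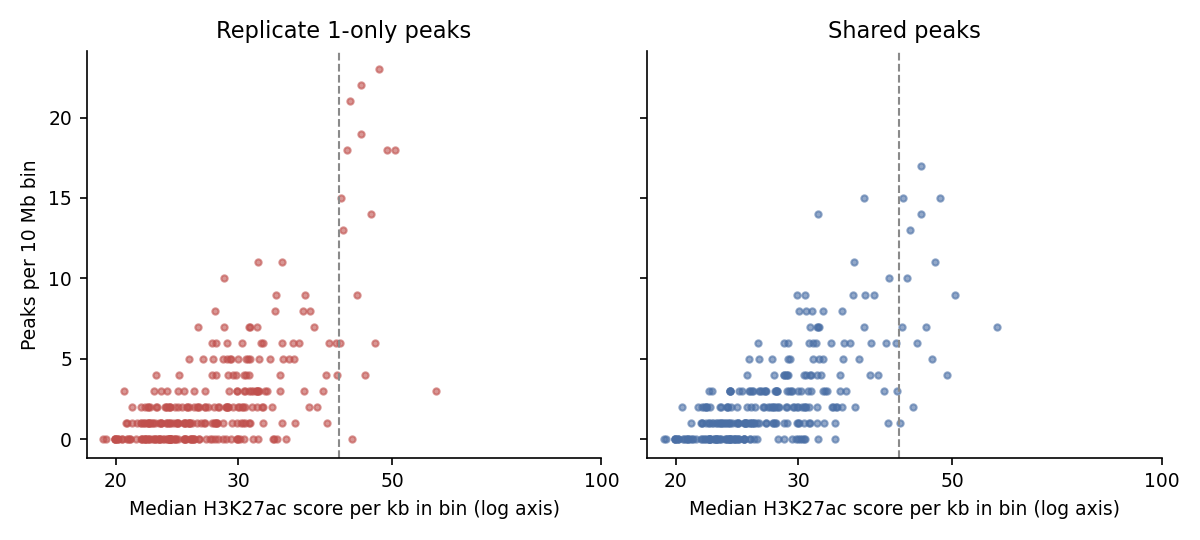
Number of EHF peaks per 10 Mb bin (vertical axes) against the median H3K27ac score per kb of the bin (horizontal axes, log scale), for replicate 1-only peaks (left) and shared peaks (right); each point is 1 of 292 bins and the dashed line marks 1.5 times the list median. The 10 bins with the most replicate 1-only peaks, 13 to 23, lie to the right of the line, which was set after these bins were seen.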

How the data were processed

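The 4 deposited interval lists were the only data used. The submitters' processing notes name the build hg19 and the tools HOMER 1.2 and Bowtie 1.0.0. HOMER findPeaks called every library separately, per the file headers, with the factor style for EHF peaks and the histone style for mark regions, at a false discovery rate of 0.01 and at least 4-fold over the input. The deposited score is, per the file headers, the authors' normalized tag count, here in whole numbers. It carries no error.

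BED starts were made 1-based. Overlap meant 1 bp or more. Shares were compared with two-sided Fisher's exact tests in Python 3.11.15 with scipy 1.17.1, adjusted by the Benjamini-Hochberg method, and score bands were pooled with an exact conditional test in R 4.3.3. The functions were tested on simulated data. The members, lists and tests were chosen with earlier results of these data known. Named peaks are the 12 highest scores, the 3 highest in each mark class, the 3 nearest to replicate 2, the 3 farthest from H3K27ac, the longest run, and the highest and lowest chromosomes; other runs and bins were named after their values were seen. An hg19 sequence and annotation were not used here, so genes, motifs and sequences are not given.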

Additional observations from a re-analysis of the deposited data

How the results depend on the processing

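Of 39 alternative values of the tested differences between sets, 35 kept their direction and their side of the 0.05 threshold. The H3K27ac difference from the shared peaks stayed between -35.1 and -28.2 points and that of H3K4me1 within 2000 bp between -15.2 and -12.5 points. The number of replicate 1-only peaks ranged from 560, without the 10 Mb bins of high H3K27ac signal, to 1078, with replicate 2 reduced to its 1537 highest-scoring peaks. The H3K4me1 difference at the peak was 3.24 points by peak centre and -0.277 with merged regions, and among peaks in H3K27ac it was 4.91 with merged regions and 4.29 without the high bins; the cause was not tested. The share with a neighbour was 0.910% within 1000 bp, 2.99% within 5000 bp and 18.6% within 50000 bp, as the limits dictate. The number of chromosomes past the test became 1 with scores of 8 or more and 3 without close neighbours. The bins of high signal and the chromosome counts were alternatives chosen after seeing the data. Alternatives on ETS motifs were not run. Leaving out a replicate was not possible, because both lists define the peaks. No paired analysis was possible because the EHF libraries alone carry replicate numbers. Low tag counts per peak, with a median score of 9, limit what can be told at single sites.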

Other observations

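The share of replicate 1-only peaks in neither mark differed between chromosomes as a description. It was 69.8% of 129 on chromosome 3, 61.4% of 57 on chromosome 8 and 59.3% of 81 on chromosome 7, against 30.8% of 26 on chromosome 10 and 34.6% of 26 on chromosome 11. The shared peaks in neither mark were 34.4% of 93 on chromosome 3, 12.5% of 48 on chromosome 8 and 28.3% of 53 on chromosome 7. The peak farthest from replicate 2, at chrX:7063636-7063786 with a score of 10, was 13470682 bp from the nearest of its peaks. It overlapped an H3K27ac region of the smallest width in the list, with a score of 9.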
